A study of Mus musculus with 4 samples.

Results

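The cells described here are 102 of 708 stromal cells, and of 6130 kept cells, in a single-cell RNA sequencing data set of mouse small intestinal lamina propria. They were chosen by their own counts of unique molecular identifiers (UMIs, 1 per captured RNA molecule). A stromal cell had at least 10 UMIs over Col1a1, Col1a2, Col3a1 and Dcn, and a member had in addition at most 2 UMIs over C3, Ogn, Ackr4, Grem1 and Col14a1. Replicate 1 held 71 members and replicate 2 held 31. The working name for these cells was stromal cells low in Grem1, Ogn and C3, with Col1a1, Mgp, Acta2, Col4a2 and Sparc as markers. The data left that name in doubt for most of them. In replicate 1, 43 members drew at least 10% of their UMIs from plasma cell genes. A further 20 and 27 members of replicates 1 and 2 held 2 or more UMIs of genes shared by white blood cells. That last trait was not theirs alone. Of the stromal cells that were not members, 287 of 343 and 119 of 263 held fewer than 2 such UMIs. The chosen cells are therefore called members here, by the rule alone.

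All samples belonged to a single group of mice, 6 to 8 weeks old, that carried floxed Cxxc1 alleles and a Cre driver. Cells were sorted as group 3 innate lymphoid cells (ILC3s), a lymphocyte type, so the sort was meant to remove stromal and plasma cells. Each of 2 replicates was captured on the BD Rhapsody system and sequenced as 2 libraries that share 1 count table, so n = 2. Nothing in the labels ties the replicates to separate animals. The p-values thus measure how far class differences vary between these 2 samples, with information on that spread shared across genes. No control group was analysed here, and no statement on the loss of Cxxc1 follows.

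Intestinal stromal cells make the connective tissue under the epithelium. Fibroblasts secrete fibrillar collagens and the proteoglycan decorin (Dcn), and also the niche factors that act on crypt stem cells, among them Grem1, an antagonist of bone morphogenetic proteins. Smooth muscle cells, myofibroblasts and pericytes share a contractile programme of smooth muscle actin (Acta2), the actin-binding protein transgelin (Tagln) and smooth muscle myosin (Myh11). This programme is switched on by serum response factor, which binds CArG boxes in the promoters of contractile genes. Basement membranes are sheets of collagen IV (Col4a1 and Col4a2), laminins, nidogen and perlecan, and Sparc is a collagen-binding protein secreted with them.

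The promoters of 2 contractile genes are shown because Acta2 marks the contractile members described further on and Myl9, a smooth muscle myosin light chain, was read in the same cells. Both are the 250 bases before the RefSeq start site (build GRCm38.p6), with CArG-type boxes in capitals. The Acta2 stretch is chr19:34255374-34255623 on the minus strand and the Myl9 stretch is chr2:156775214-156775463 on the plus strand.
Acta2: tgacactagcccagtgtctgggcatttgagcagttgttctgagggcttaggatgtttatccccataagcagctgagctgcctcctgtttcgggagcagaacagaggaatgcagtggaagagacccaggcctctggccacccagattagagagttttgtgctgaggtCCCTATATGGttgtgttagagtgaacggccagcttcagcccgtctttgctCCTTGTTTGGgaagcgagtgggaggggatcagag
Myl9: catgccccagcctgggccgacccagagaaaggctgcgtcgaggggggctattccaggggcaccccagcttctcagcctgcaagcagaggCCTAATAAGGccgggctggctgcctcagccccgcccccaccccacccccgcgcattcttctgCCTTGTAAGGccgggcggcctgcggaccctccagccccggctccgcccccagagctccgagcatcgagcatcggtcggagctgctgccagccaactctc
The search used the CArG box, a palindrome read alike on both strands, either with all 6 of its middle bases A or T or with at least 5 of them. The strict form was in 4 of 29 contractile genes with a promoter window and in 1.62% of 27025 genes, and the relaxed form, which includes the strict one, was in 9 of 29 and in 9.78%. Acta2 held 2 relaxed boxes, beginning 84 and 34 bases before the start site. Myl9 held 1 strict box at 161 bases and 1 relaxed box at 99 bases. A match is a run of letters and not a measured binding site.

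The UMI totals set what can be read from each cell. Kept cells had at least 300 genes and at most 25% mitochondrial UMIs. The median member held 5853 UMIs in replicate 1 and 2665 in replicate 2, against 8504 and 6983 in the other stromal cells and 3705 and 2297 in kept cells under the stromal gate. Between the replicates 7 cell indices were shared.

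Members lay close to both limits of the rule. Over the 4 stromal gate genes the median member had 12 UMIs in replicate 1 and 16 in replicate 2, and the median other stromal cell had 515 and 361. Of the 71 members of replicate 1, 41 had 10 to 12 such UMIs and 7 had 50 or more. In replicate 2 the counts were 12 and 4 of 31. Just under the limit, kept cells with 9 stromal UMIs and at most 2 gate-gene UMIs numbered 31 in replicate 1 and 0 in replicate 2, against 17 and 7 members with exactly 10. At the other limit, 13 and 10 members had 2 UMIs of the 5 low genes, and 6 and 10 stromal cells fell just outside with 3. Most stromal cells were far from it, with 300 of 414 and 224 of 294 holding 12 or more.

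The members split into 3 sets, drawn after their values were seen and therefore given with no test. Plasma-list members, with at least 10% of their UMIs from Igha, Igkc, Jchain, Mzb1, Sdc1, Derl3, Iglc2 and Xbp1, numbered 43 in replicate 1 (60.6%, exact 95% binomial interval 48.3 to 72.0%) and 0 in replicate 2. Immune-list members, with a lower plasma share and at least 2 UMIs of Ptprc, Coro1a, Cd52, Laptm5 and Rac2, numbered 20 in replicate 1 (28.2%, 18.1 to 40.1%) and 27 in replicate 2 (87.1%, 70.2 to 96.4%). The remaining members numbered 8 (11.3%) and 4 (12.9%, exact 95% binomial interval 3.63 to 29.8%). The intervals cover counting error only.

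**Figure D1:**
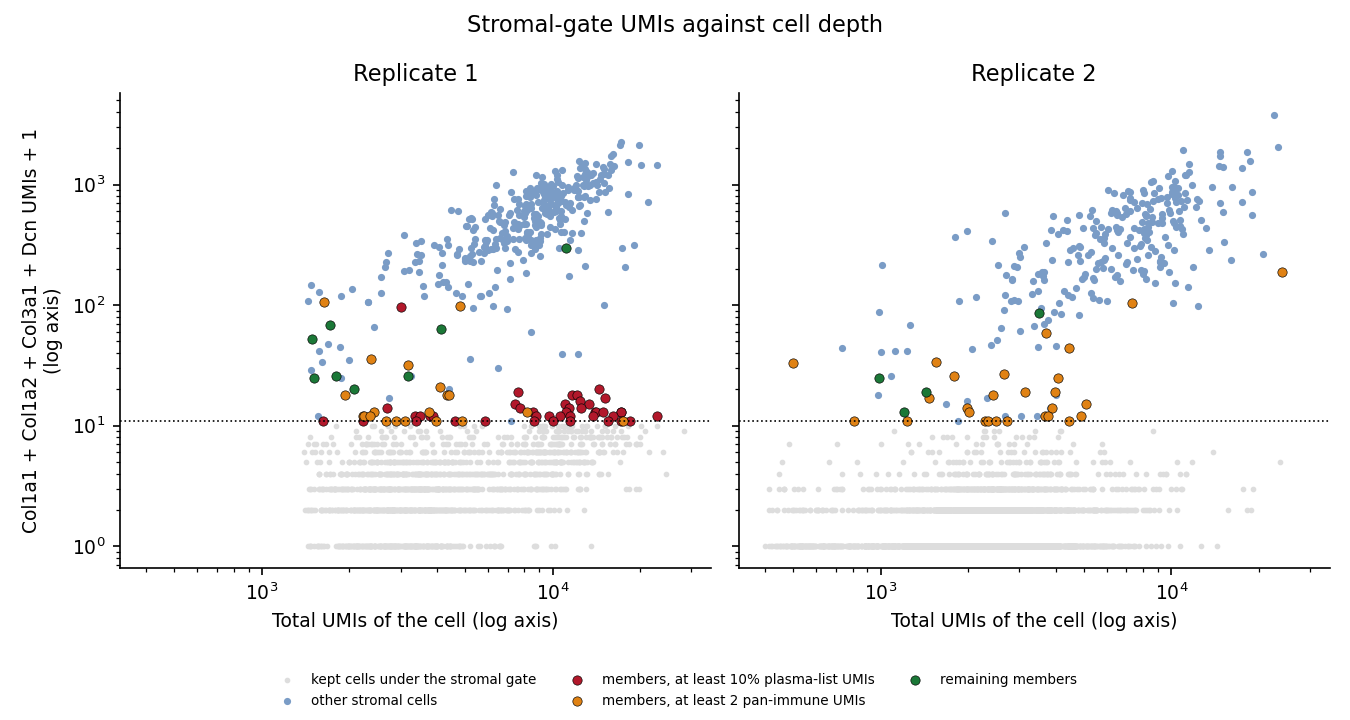
Each point is a kept cell, with its total UMIs on the x axis and its UMIs of Col1a1, Col1a2, Col3a1 and Dcn plus 1 on the y axis (both log axes); the dotted line is the gate of 10 UMIs. Most of the 43 plasma-list members lie along the gate in replicate 1, and most other stromal cells lie well above it.

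Stromal transcripts were a small share of the plasma-list members' RNA. The 4 gate genes made up 0.116% of the UMIs of the median plasma-list member, with a lowest value of 0.048% and a highest of 3.19%. Immune-list members had medians of 0.431% in replicate 1 and 0.596% in replicate 2, with highest values of 6.40% and 6.39%. The remaining members had medians of 1.55% and 1.84%, and none of them fell under 0.788%. Levels below are in CPM (UMIs per 1000000 UMIs, from the sums over the cells of a class). On that scale the 4 genes stood at 2954 and 8144 CPM over all members, and at 1358 CPM over the plasma-list members. The medians of all 3 sets lay under that of the other stromal cells.

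**Figure D2:**
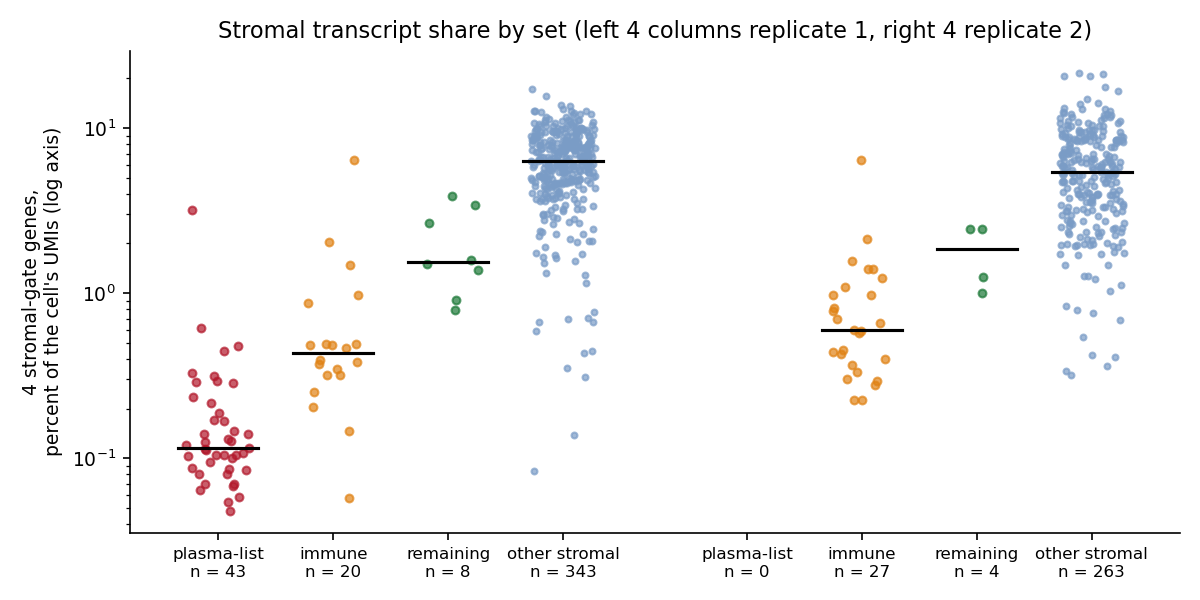
Share of each cell's UMIs taken by the 4 stromal gate genes (log axis), by set and replicate, with a bar at the median. Remaining members sit above the plasma-list and immune-list medians and below the median of the other stromal cells, and no plasma-list member was found in replicate 2.

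Plasma-list members were led by immunoglobulin transcripts. Igkc, the kappa light chain, stood at 245538 CPM over these 43 cells and Igha, the IgA heavy chain, at 123744 CPM. Mzb1, a chaperone of antibody-secreting cells, was at 2001 CPM. Over all members, Igha was higher than in the other stromal cells in replicate 1 (99589 against 6279 CPM) and lower in replicate 2 (109 against 1629 CPM). Jchain, which joins IgA into dimers, likewise stood at 40047 against 2179 CPM in replicate 1 and at 9.12 against 480 CPM in replicate 2. The replicates thus differ in direction, and no shared level of plasma cell genes can be given for the members. Plasma-rich cells were 567 of 1945 kept cells in replicate 1 (29.2%) and 36 of 4185 in replicate 2 (0.860%).

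Among plasma-rich kept cells of replicate 1, members were most frequent at the greatest depth. When these cells were ranked by total UMIs, 4 of 142 were members among the shallowest, then 10 of 142 and 5 of 142, and 24 of 141 in the deepest (17.0%). The median number of stromal gate UMIs in the same 4 depth classes was 4, 4, 5 and 7. Among kept cells with 2 or more pan-immune UMIs that were neither plasma-rich nor among the other stromal cells, members from the shallowest to the deepest class were 7, 4 and 5 of 254 and 4 of 253 in replicate 1. They were 5 and 4 of 950 and 5 and 13 of 949 in replicate 2. Kept cells under the gate carried the 4 genes at 525 CPM in replicate 1 and 251 CPM in replicate 2. For every 100 UMIs of the 4 stromal genes, Sparc had 30.8 and 27.8 UMIs in those cells and 20.3 in plasma-list members. It had 31.3 and 35.7 in immune-list members, 39.2 and 27.3 in the remaining members and 32.2 and 25.1 in the other stromal cells. The part of free RNA in these values was not tested. No doublet caller was run, and cells called as tag multiplets were left out.

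Immune-list members held the transcripts of several kinds of white blood cell. Ptprc, the pan-leukocyte phosphatase CD45, was read in 15 of 20 of them in replicate 1 and in 21 of 27 in replicate 2, at 736 and 731 CPM. Kept cells under the stromal gate had Ptprc at 569.5 and 1112 CPM. Il22, the cytokine that ILC3s make, was read in 11 cells of each replicate, at 1905 and 1395 CPM. Cd3e, a subunit of the T cell receptor complex, was read in 6 and 14 cells, at 157 and 614 CPM. Cd74, the invariant chain of antigen presentation, was read in 4 and 11 cells, at 3738 and 858 CPM. Ccl5 was at 181 and 2799 CPM and Gzma, a cytotoxic protease, at 1170 and 1755 CPM, the latter from 2 and 3 cells.

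The working markers other than Acta2 were weak in the members in CPM. Col1a1, which the rule used, was at 711 and 2097 CPM against 16700 and 18966 CPM in the other stromal cells. Sparc was at 885 and 2800 CPM against 21689 and 15817 CPM, and a UMI of it was read in 85.9% and 93.5% of members. Mgp, an inhibitor of calcification, was at 436 and 903 CPM against 8991 and 4291 CPM. Col4a2 was at 79.0 and 82.1 CPM against 938 and 501 CPM, and was read in 16 of 71 and 5 of 31 members. Acta2 was at 163 and 36.5 CPM against 159 and 22.8 CPM, with most of its 91 UMIs of replicate 1 in 4 cells. Its log2 difference of 0.34 did not pass (edgeR adjusted p = 0.724). It turned to -0.74 with members at 0 UMIs of the 5 low genes and to -3.52 with 3 classes in the fit. With cells chosen on counts thinned to 1000 UMIs it was at -1.29, and without cells carrying other lineage lists at -0.18. The other 4 markers were lower in members in both replicates.

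Of the low genes that define the members, C3 was at 44.9 and 155 CPM in the members and 2835 and 4909 CPM in the other stromal cells. Grem1 was at 16.2 and 18.2 CPM against 1671 and 2370 CPM, and Col14a1 at 30.5 and 36.5 CPM against 1143 and 1778 CPM. Ogn stood at 7.18 and 45.6 CPM against 235 and 478 CPM. Ackr4 was read with 2 UMIs and 1 UMI. These values chose the cells and are a description. Per 100 UMIs of the 4 stromal genes, the 5 low genes had 3.47 and 3.25 UMIs in members, 9.17 and 15.9 in the other stromal cells and 11.9 and 13.5 in kept cells under the gate.

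Matrix lists that hold no gene of the rule were low in members as a group, in CPM. These sums are not independent of the rule, since its count limits picked cells with few stromal UMIs. The basement membrane list of 20 genes summed to 1568 and 4003 CPM against 28607 and 20803 CPM in the other stromal cells. Sparc, whose levels are given above, made up most of that sum in both classes and both replicates. Per 100 UMIs of the 4 stromal genes, Sparc was lower in members in replicate 1 and higher in replicate 2. Elastic and matricellular genes stood at 2717 and 7359 CPM against 39837 and 32588 CPM, and matrix-processing enzymes at 812 and 3164 CPM against 11236 and 9485 CPM. The fibrillar matrix list of 22 genes summed to 4186 and 11180.2 CPM against 86676 and 81297 CPM, but it holds genes that the rule used. Its 4 gate genes alone made up 2954 and 8144 CPM in members and 67254 and 62984 CPM in the other stromal cells, so that sum describes the choice of cells. The contractile list of 33 genes was closer in its sum, at 1724 and 2462 CPM against 3718 and 2567 CPM. By cell, it made up a median of 0.0604% and 0.163% of UMIs in members, against 0.267% and 0.218% in the other stromal cells. Pan-immune genes ran the other way, at 2065 and 3474 CPM against 249 and 1140 CPM.

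**Figure D3:**
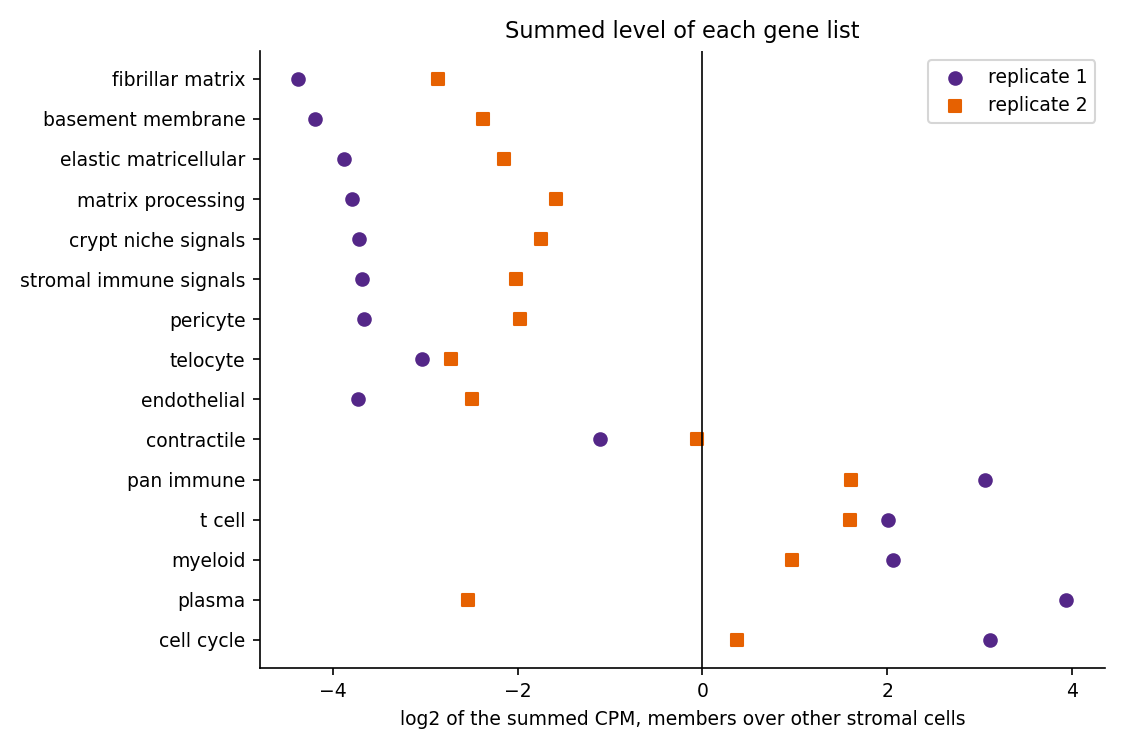
Log2 ratio of each list's summed CPM in members over the other stromal cells, 1 point per replicate. Matrix, niche, pericyte, telocyte and endothelial lists lie under 0 in both replicates, pan-immune and T cell lists lie above 0, and the plasma list is at 3.94 in replicate 1 and -2.53 in replicate 2.

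A fit over all genes gave the extent of that contrast, which is the one the rule used, so nothing is read from its counts. With edgeR's quasi-likelihood test on UMI sums per replicate, the replicate as a block and Benjamini-Hochberg adjusted p under 0.05, 278 of 9475 genes were higher in members (2.93%) and 677 were lower (7.15%). Genes of the rule were not tested. Lower genes included 14 of 15 tested fibrillar matrix genes, 11 of 14 basement membrane genes, 29 of 32 elastic and matricellular genes, 22 of 28 matrix-processing genes and 13 of 22 crypt niche signals, with list medians of -3.12, -3.17, -3.04, -2.85 and -2.53 on the log2 scale beside -0.04 over all genes (-2.36 for the niche signals with genes absent from a class set at their bound). Only 2 of 27 contractile genes, Mylk and Cald1, were among the lower genes, and 1, Tes, was among the higher ones, with a list median of -0.999. Of the 5 pan-immune genes 4 were higher and 0 lower, with a median of 2.19. Once cells with 2 or more pan-immune UMIs were left out, which kept 15 and 4 members, the counts fell to 4 higher and 4 lower genes of 4941.

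Some single genes, chosen after their values were seen, show the levels behind these counts. Lum, the keratan sulfate proteoglycan lumican, was at 53.9 and 109 CPM in members and 1276 and 1166 CPM in the other stromal cells. Fbn1, the microfibril protein fibrillin, was at 88.0 and 100 CPM against 1569 and 1119 CPM. Elastin (Eln) was at 110 and 356 CPM against 2989 and 2406 CPM. Rspo3, a Wnt-potentiating crypt signal, was at 3.59 and 9.12 CPM against 102 and 103 CPM. The chemokine Cxcl12 was at 70.0 and 100 CPM against 955 and 941 CPM. These 5 genes were lower in members in both replicates. Igfbp5, of the elastic and matricellular list, did not pass, at 271 and 611 CPM against 1129 and 609 CPM (edgeR adjusted p = 0.199).

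The remaining 12 members carried stromal transcripts with little immune signal, by the way they were drawn. Each of them had UMIs of Col1a1, Col3a1, Col6a2, Bgn and the Wnt inhibitor Sfrp1. Sparc was read in 11 of 12, with 8 to 97 UMIs a cell in replicate 1 and 0 to 25 in replicate 2, and stood at 8259 and 5342 CPM. Igfbp7 was read in 11 of 12 cells, at 4370 and 8013 CPM. Mgp, a working marker, was read in only 6 of 12, at 1630 and 1406 CPM, with 38 of its 44 UMIs of replicate 1 in 1 cell. Pdgfra, the receptor of fibroblasts and telocytes, was read in 4 of 12 cells.

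Adamdec1, a metalloprotease of the gut mucosa, was high in the remaining members. All 8 of replicate 1 had it, with 5 to 99 UMIs and a median of 17.5, and 3 of 4 had it in replicate 2, with up to 20. Its level was 8111 and 4358 CPM there, against 1968 and 2164 CPM in the other stromal cells. In all members together it was lower, at 508 and 1030 CPM. One deep cell of replicate 1, with 11115 UMIs, held the 99 UMIs, and without the top cell the members of replicate 1 stood at 337 CPM. Bmp4, a ligand that limits crypt stem cells, was read in 9 of 12 remaining members, at 1000 and 1546 CPM.

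Among basement membrane genes, Col4a1 and Nid1 were read in a larger share of the remaining members of replicate 1 than of replicate 2. Lama2 was read in equal shares. The median remaining member held 1939.5 UMIs in replicate 1 and 1316 in replicate 2. The basement membrane list summed to 17296 and 12091 CPM, against 28607 and 20803 CPM in the other stromal cells. Sparc alone was at 8259 and 5342 CPM of that sum in the remaining members. In replicate 2, 1 cell held 66 of the list's 86 UMIs. Col4a1 was read in 8 of 8 and 1 of 4 cells, at 2741 and 844 CPM. Col4a2 was read in 5 and 2 cells, at 963 and 422 CPM. These chains form 1 collagen IV molecule, and their genes lie head to head on chromosome 8, with RefSeq start sites 21 bases apart on opposite strands. Nid1, the nidogen that links laminin to collagen IV, was read in 7 of 8 and 1 of 4 cells, Lamb1 in 5 and 2 and Lama2 in 4 and 2. Col15a1 was read in 3 cells and 1 cell. Col18a1 was read in 5 cells and 1 cell, which held all 19 of its UMIs of replicate 2.

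The contractile programme sat in very few cells. In replicate 1, 64 of 71 members had no Acta2 UMI, 1 had 1, 2 had 3 or 4, and 4 had 15, 19, 22 and 27. In replicate 2, 27 of 31 had none and 4 had 1 each. So 9.86% and 12.9% of members had a UMI, against 12.8% and 9.89% of the other stromal cells, and 1.05% and 0.0514% of kept cells under the stromal gate. Cells with 5 or more Acta2 UMIs were 4 of 71 members and 6 of 343 other stromal cells in replicate 1, and 0 of 31 and 1 of 263 in replicate 2. A count of 5 or more was thus found in members of replicate 1 alone.

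Those 4 Acta2-rich members shared the programme across its genes. Their contractile list summed to 105, 105, 119 and 171 UMIs, or 2.18%, 2.55%, 3.75% and 8.23% of the cell. All 4 had UMIs of Tagln, Myh11, Actg2, Myl9, Mylk, Tpm1, Tpm2, Flna and Npnt, and 3 of 4 had calponin (Cnn1). Acta2 stood at 5854 CPM over the 4 cells, Tagln at 3103 CPM and Myh11 at 2186 CPM. The 6 Acta2-rich cells among the other stromal cells had 8025, 4508 and 2937 CPM of the same genes, and the 299 without an Acta2 UMI had 0, 7.69 and 0.384 CPM. Npnt, nephronectin, an extracellular ligand of integrin Itga8, was at 2045 CPM in the 4 members and 1403 CPM in the 6 other cells.

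Matrix and niche genes of the 4 Acta2-rich members were uneven. Mgp had 0 UMIs in all 4, which allows up to 212 CPM at 3 counts over their 14178 UMIs, against 1029 CPM in the 6 other Acta2-rich cells and 9355 CPM in the other stromal cells without Acta2. Dpt, Clec3b and Col15a1 also had 0 UMIs. Sparc was at 7335 CPM, Col4a1 at 2257 CPM and Adamdec1 at 5078 CPM, all 3 read in every one of the 4. Fhl1, a LIM protein of muscle, was at 5290 CPM against 2058 CPM in the 6 others. Rgs5, a pericyte regulator of G protein signalling, was read in all 4 at 1411 CPM, against 2413 CPM in the 6 others and 1195 CPM in the other stromal cells without Acta2. The pericyte genes Pdgfrb and Cspg4 had 2 UMIs and 1 UMI in the 4 members, and Notch3, Kcnj8, Abcc9 and Mcam had 0. Those 0 counts allow up to 212 CPM each, and the 6 others stood at 0, 56.1, 262 and 112 CPM of the same genes. With 4 cells from 1 replicate there is no replicate check on these values.

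**Figure D4:**
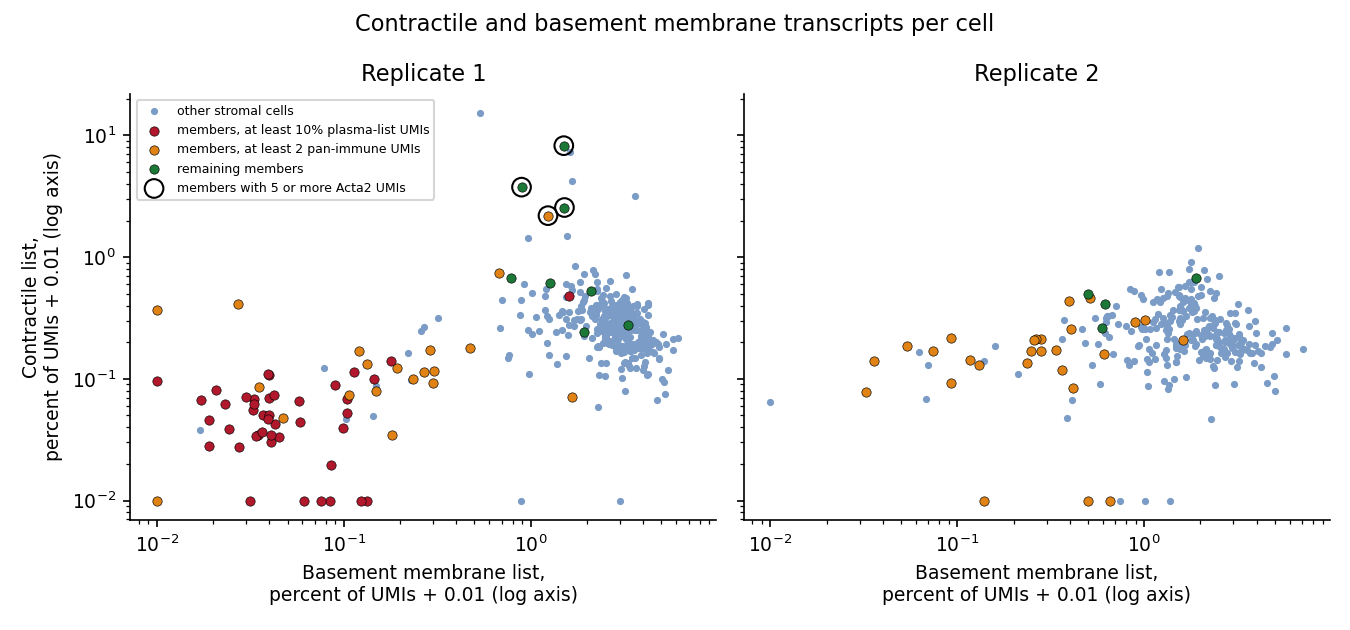
Share of each cell's UMIs from the basement membrane list (x axis) and the contractile list (y axis), both plus 0.01 on log axes; rings mark members with 5 or more Acta2 UMIs. The 4 ringed cells of replicate 1 lie at 2.18% to 8.23% on the y axis, above every other member.

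To ask which genes vary with Acta2 inside the members, sums of the 7 and 4 cells with an Acta2 UMI were compared with sums of the 64 and 27 without one. In replicate 1 the 64 held all 43 plasma-list members, which gave 446868 of the 525963 UMIs of that class. Members with at least 5 Acta2 UMIs, the gate first intended, were under 10 in each replicate, so any Acta2 UMI was used. Acta2 chose the classes and was not tested. Genes of the membership rule were not left out of this fit. Of 5328 genes, 106 were higher (1.99%) and 65 lower (1.22%) in cells with Acta2, by edgeR's quasi-likelihood test with the replicate block and adjusted p under 0.05, in a fit that also held the other stromal cells. The higher genes were 62.0% of the calls, and 78.7% under RLE scaling, which moved the median over all genes from -0.40 to -0.06 on the log2 scale. In replicate 2 a single deep cell, which held the neuron transcripts described further on, gave 78.1% of the 30704 UMIs of the class. Without cells holding 2 or more pan-immune UMIs 0 genes were higher and 1 was lower of 534, and without the replicate block 3 were higher and 0 lower.

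Of 21 contractile genes tested, 11 were higher and 0 lower, with a median log2 fold change of 4.00 beside -0.40 over all genes (3.71 beside -0.28 with genes absent from a class set at their bound). Myh11 had 32 UMIs in the 7 cells of replicate 1 and 1 UMI among the 64, but 1 and 0 UMIs in replicate 2. Tagln had 45 against 2 UMIs in replicate 1 and 0 against 1 in replicate 2, so its call rests on replicate 1. Npnt was at 1005 CPM in the 7 cells with 0 UMIs among the 64, at least 176-fold higher at 3 counts in replicate 1. Tpm2 was likewise at least 131-fold higher there and at 0 UMIs in both classes of replicate 2. Dstn, destrin, an actin-severing protein, was higher in both replicates, at 941 and 651 CPM against 26.6 and 25.3 CPM (log2 4.00, SE 0.65, edgeR adjusted p = 0.0111). In replicate 2 the cells with Acta2 held 20 Dstn UMIs and the members without Acta2 held 2. The set of remaining members, which has cells in both classes, held 1 there. The deepest cell gave 72.9% of the contractile-list UMIs of the cells with Acta2 there. Myl6 did not pass, at 1492 and 749 CPM against 249 and 621 CPM (edgeR adjusted p = 0.448).

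Some matrix genes were higher in the cells with Acta2 as well, against a class whose UMIs came mostly from plasma-list members in replicate 1. No gene was higher once cells with 2 or more pan-immune UMIs were left out. The part of this cell make-up in the differences was not tested. Of 11 basement membrane genes 4 passed and 0 were lower, with a median log2 fold change of 2.20. Of 21 fibrillar genes 7 passed (median 1.66), of 32 elastic and matricellular genes 6 (1.93) and of 25 matrix-processing genes 5 (2.24), with 0 lower in each. The fibrillar genes tested include Col1a1, Col1a2, Col3a1 and Dcn, which chose the members, so their median is in part a description. None of these stromal gate genes passed. Col4a1 was at 2335 and 782 CPM against 72.2 and 101 CPM (log2 3.31, SE 0.56, edgeR adjusted p = 0.0146). Col4a2 was at 876 and 163 CPM against 32.3 and 50.7 CPM (2.81, SE 0.71, adjusted p = 0.0450). Fibronectin (Fn1) was at 1362 and 717 CPM against 32.3 and 114 CPM (3.34, SE 0.63, adjusted p = 0.0202). Igfbp5, which binds insulin-like growth factors, was at 3924 and 1400 CPM against 57.0 and 304 CPM (3.31, SE 0.70, adjusted p = 0.0274). Choosing the cells again on counts thinned to 1000 UMIs, at 2 or more Acta2 UMIs, left 2 cells with Acta2, both of replicate 1. In the full counts of cells so chosen, Col4a2 was at -0.36 and Igfbp5 at -0.79 on the log2 scale. Sparc, at 7265 and 3192 CPM against 511 and 2647 CPM, and Mgp, at 1362 and 912 CPM against 382 and 899 CPM, did not pass (edgeR adjusted p = 0.235 and 0.913).

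Plpp3, a lipid phosphate phosphatase, was at 1622 and 1759 CPM against 49.4 and 76.0 CPM (log2 3.99, SE 0.54, edgeR adjusted p = 0.00573), and Fhl1 at 2854 and 1498 CPM against 58.9 and 127 CPM (3.88, SE 0.56, adjusted p = 0.00573). Bmp4 was at 778 and 717 CPM against 20.9 and 76.0 CPM (3.51, SE 0.64, adjusted p = 0.0202). Rgs5 was at 973 and 456 CPM against 38.0 and 139 CPM (2.51, SE 0.63, adjusted p = 0.0450). In replicate 2, 13 of the 14 Rgs5 UMIs of the cells with Acta2 came from the deepest cell. With cells chosen again on counts thinned to 1000 UMIs and full counts summed, Rgs5 was at -0.18 on the log2 scale. That choice left 2 cells with Acta2, both of replicate 1. Plpp3, Fhl1 and Bmp4 were higher in cells with Acta2 in both replicates. In replicate 2 the deepest cell gave 18 of the 54 Plpp3 UMIs and 11 of the 22 Bmp4 UMIs of the class, and it held 33 Fhl1 UMIs.

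Some immune and plasma genes were lower in the same comparison: 2 of 5 pan-immune genes, 5 of 7 plasma genes and 1 of 7 T cell genes passed, and 0 of each were higher. Cd52, a lymphocyte surface glycoprotein, was at 130 and 32.6 CPM in cells with Acta2 against 989 and 1077 CPM (log2 -4.52, SE 0.87, edgeR adjusted p = 0.0211). Ptprc was at 97.3 and 0 CPM against 245 and 963 CPM (-4.07, SE 1.00, adjusted p = 0.0430). Igha was at 843 and 65.1 CPM against 105378 and 127 CPM. Gzma had 0 UMIs in cells with Acta2 in both replicates, at least 3.36-fold lower in replicate 1 and 23.3-fold lower in replicate 2 at 3 counts. The classes therefore differ in immune as well as in contractile transcripts, and the part of the one in the other was not tested.

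A cell was taken to carry a list of cell type markers at 3 or more UMIs over at least 2 of its genes. The list of trophocytes and adventitial fibroblasts was carried by 64 of 71 and 20 of 31 members and by 341 of 343 and 261 of 263 other stromal cells. Cells were then thinned to 1000 UMIs, and those with fewer were left out of the thinned shares. After this, members carried it in 26.8% and 35.7% of cells and the other stromal cells in 96.5% and 96.9%. Markers of the other non-immune types were found in fewer members. The endothelial list was carried by 1 of 71 and 1 of 31 members, the pericyte list by 4 and 2, the telocyte list by 5 and 3, and the epithelial list by 1 and 0. No member carried the lymphatic, mesothelial or interstitial cell of Cajal list, which for 0 cells allows a share of carriers of up to 5.06% and 11.2% by exact 95% binomial interval. Among the other stromal cells 147 of 343 and 125 of 263 carried the pericyte list and 252 and 192 the telocyte list, at greater depth. After the same thinning, the pericyte list was carried by 0 members in either replicate and by 4.37% and 5% of the other stromal cells. The pan-immune list was carried by 52 of 71 and 26 of 31 members, and by 31.0% and 60.7% after thinning, against 2.33% and 16.2% of the other stromal cells thinned alike.

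The deepest member of replicate 2, with 23994 UMIs, 5824 genes and 186 stromal gate UMIs, held 1184 UMIs of 8 neuron genes chosen after its values were seen. Among them Sst, the neuropeptide somatostatin, had 693 UMIs and Scg2, a granule protein, 170. It was the only member with 3 or more UMIs of those genes, it carried the glia list, and it held 1 of the 4 Acta2 UMIs of replicate 2. The cell cycle list of 12 genes stood at 1595 CPM in members against 184 CPM in the other stromal cells in replicate 1, and at 228 against 176 CPM in replicate 2. Mki67 was at 445 CPM in plasma-list members and 0 CPM in the remaining ones.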

How the data were processed

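Both replicates were captured on BD Rhapsody and deposited as tables of UMI counts per cell and gene, made by the authors with the BD WTA Multiplex Rhapsody pipeline, version 1.8, on GRCm38 with GENCODE vM19, per the file headers. HISAT2 2.0.5 and Bowtie2 are listed too, per the submitters' processing notes. The tagged cells held 11939862 and 12141164 UMIs. Cells of sample tag 4 (replicate 1) and tag 2 (replicate 2) were used; 349 and 572 multiplet calls were left out, and no doublet caller was run. Members and gene lists were chosen with earlier results of these data known, and genes outside the rule for named genes (markers, rule genes, largest calls and highest levels of each list) after their values were seen. UMIs were summed per replicate and class and tested with edgeR 4.0.16 (TMM, filterByExpr, replicate as a block, since both classes come from the same captures). Alternatives changed gates, scaling, filter, tool (DESeq2 1.42.0) and block. In simulated counts the Acta2 comparison recovered 16% of 4-fold and 66% of 16-fold changes. Intervals are exact binomial at 95% and cover counting error only. Promoters are from RefSeq (GRCm38.p6). The gene that drives Cre is not reported here.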

Additional observations from a re-analysis of the deposited data

How the results depend on the processing

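The report's main designs hold the replicate as a block; with no replicate block, the Acta2 comparison gave 3 higher and 0 lower genes and members against the other stromal cells gave 69 higher and 482 lower. For cells with Acta2, 106 genes were higher and 65 lower. Higher counts were 22 with members at 0 UMIs of the 5 low genes, 55 with 2 classes in the fit, 223 with DESeq2, 226 with RLE scaling, 183 with no low-count filter, 11 after thinning to 1000 UMIs and 0 without cells holding 2 pan-immune UMIs. Lower counts were 26 at 0 UMIs of the low genes, 13 with 2 classes, 124 with an Acta2 gate of 10 UMIs, 32 with DESeq2, 43 at 500 genes and 10% mitochondrial UMIs, 231 with no filter and 1 without pan-immune cells. The thinned, 0-UMI and 10-UMI fits had cells with Acta2 from replicate 1 alone. In the thinned fits, counts thinned to 1000 UMIs only chose the cells, at 0 UMIs of the 5 low genes. The sums fitted were of full counts. For members against the other stromal cells (278 higher, 677 lower), the counts were 12 and 369 with 3 classes, 152 and 426 with DESeq2, 491 and 1059 with no filter, 704 and 1348 without cells carrying other lineage lists, and 4 and 4 without pan-immune cells.

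Members were 17.1% and 10.5% of stromal cells; the shares were 6.52% and 4.08% at 0 UMIs of the low genes, 21.5% and 15.6% at up to 5 UMIs, and 4.97% and 3.25% without pan-immune cells. Members with Acta2 were 9.86% and 12.9%. Without pan-immune cells they were 26.7% and 50%, and in replicate 2 they were 0% at 5 or more UMIs, at 10 or more and after thinning. After thinning, the share carrying the list fell in replicate 1 to 0% for endothelial, pericyte and epithelial, 31.0% for pan-immune and ILC3, 4.23% for T cell, 91.5% for plasma and 8.45% for myeloid genes. In replicate 2 it fell to 0% for endothelial, pericyte, telocyte, glia and plasma genes and to 60.7% for pan-immune genes.

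Some genes reversed on the log2 scale, and the cause was not tested. Against the other stromal cells, Acta2 (0.34) was at -0.74 with 0 UMIs of the low genes, -3.52 with 3 classes, -1.29 after thinning and -0.18 without other lineages. With 3 classes, Igha was at -1.82, Igkc at -1.66, Jchain at -2.82 and Gzma at -2.23. Without replicate 1, Igha was at -3.84, Igkc at -2.27 and Jchain at -5.13, against 3.99, 3.88 and 4.2 without replicate 2, and Jchain was at -0.62 with DESeq2. Without pan-immune cells, Cald1 was at 0.80 and Adamdec1 at 0.42. In the Acta2 comparison, Tagln was at -0.22 without replicate 1 and 8.28 without replicate 2. Cells chosen after thinning put Col4a2 at -0.36, Sparc at -0.80, Col1a1 at -0.98, Igfbp5 at -0.79, Eln at -1.16 and Rgs5 at -0.18. Mgp (0.12) was at -3.15 with 0 UMIs of the low genes, -12.45 at the 10-UMI gate and -14.00 after thinning, both with 0 Mgp UMIs in the cells with Acta2, -0.11 with no filter, -0.46 without other lineages and -1.76 without pan-immune cells, where Col1a1 was at -0.77.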
